A study of Rattus norvegicus with 49 samples.

Results

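The liver response of male F344 rats to the highest dose of furan was measured on 5 arrays from males given 2 mg/kg, which were set against 5 arrays from male controls given 0 mg/kg. These 10 arrays were chosen by the sex and dose in their labels, and they are 10 of the 49 arrays of the series. Furan is a small volatile compound that forms when food is heated. F344 is an inbred rat strain, and the rats were 7 to 8 weeks old at the start. They received furan in corn oil, or corn oil alone, by stomach tube, 5 days a week over 90 days. The series also holds males at 0.03, 0.12 and 0.5 mg/kg and females at all of these doses, with 5 arrays per group except for 4 arrays of males at 0.03 mg/kg. Each array carried RNA of 1 liver labelled with Cy5 and a rat reference RNA mixed from several tissues labelled with Cy3. Every value below is a log2 ratio of liver over reference or a difference of such ratios, so that a difference of 1 is a doubling.

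The liver turns furan into a reactive dialdehyde through cytochrome P450 2E1, and glutathione captures it. Reactive compounds free the transcription factor NRF2, which binds antioxidant response elements and raises genes of glutathione use, aldehyde reduction and export. Metals and stress raise the metallothioneins through a factor that binds metal response elements. Injury near the bile ducts in rats draws out ductular cells, which carry keratins and adhesion molecules that hepatocytes have little of.

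The arrays differed in brightness. Of the liver spots, 45.5% to 69.6% were well above background on the control arrays and 43.1% to 69.4% on the arrays at 2 mg/kg. Controls lay on 5 of the 8 slides and treated males on 5, with 3 slides holding an array of each. Slide 2 held control 2 and animal 86, slide 4 held control 5 and animal 84, and slide 8 held control 6 and animal 87. The array of animal 26 in the males at 0.03 mg/kg had only 5.06% of its liver spots above background. It belongs to neither group compared, but it adds to the spread that the model shares between groups. Animal numbers here are those of the scanner files. In the series matrix, the column labelled animal 81 correlated best with the scanner array of animal 86 (r = 0.988 over probes), the column labelled 86 with the array of animal 81 (r = 0.958), and the column labelled 83 with no array above r = 0.645. Control columns 2, 3 and 4 likewise matched the arrays of controls 4, 2 and 3 (r = 0.983, 0.994 and 0.965). Apart from column 83, whose source is not established, these columns matched arrays of their own group, and which animal numbers are right is not known. None of the liver spots used was saturated on these arrays.

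In males at 2 mg/kg, 249 probes rose and 143 fell against controls, which is 2.22% of the 17661 probes tested. Calls required an adjusted p of 0.05 or less together with a change of 1.5-fold or more. The rises were 1.41% and the falls 0.81% of the probes tested. Of the called probes, 226 had a gene symbol, and they stood for 113 genes that rose and 94 that fell. The median called rise was 1.67-fold and the median called fall 1.79-fold. Of the 249 rises 71 were at least 2-fold and 21 at least 3-fold, and of the 143 falls 50 and 15 were, with the largest rise at 8.54-fold and the largest fall at 5.72-fold. The 5 treated arrays lay beyond all 5 controls for 196 of the called probes (50%), against 4.26% of all probes tested. The same arrays served for the calls, so that a higher share among called probes was built in. With an offset of 10 in the background correction in place of 50, 285 rose and 294 fell, and with median centring 9 rose and 2 fell. Falls outnumbered rises with the dim array left out (336 rose and 404 fell) and without control 6 (258 rose and 419 fell). A set of 108 probes, or 0.612% of those tested, was called in each of 14 fits: with all arrays, with the slides blocked, with the dim array left out, with both of these changes, and with each of the 10 arrays omitted in turn. In it, 72 probes for 38 named genes rose and 36 probes for 27 named genes fell.

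**Figure D1:**
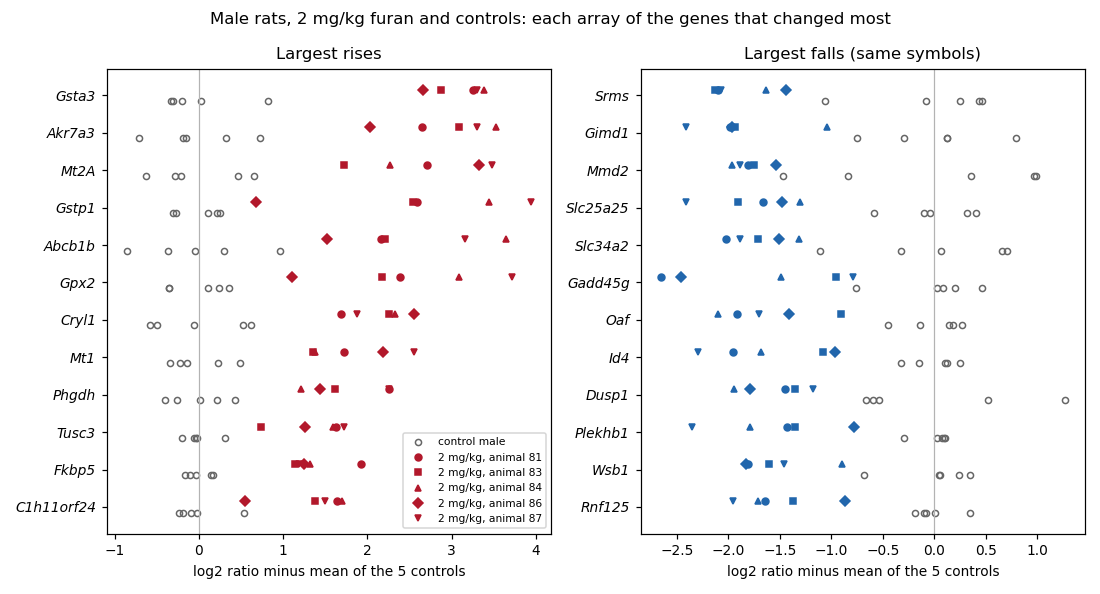
Log2 ratio of each array minus the mean of the 5 controls, for the 12 genes with the largest rises (left) and falls (right) whose treated arrays all lay beyond all controls. Open circles are the 5 control males and filled symbols the 5 males at 2 mg/kg, 1 symbol per animal. Animal 86 is the lowest treated animal for Gsta3, Akr7a3, Gstp1, Abcb1b, Gpx2 and C1h11orf24, and it is among the highest for Mt2A, Mt1 and Cryl1.

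Several of the 12 named genes with the largest rises code for enzymes of glutathione use or aldehyde reduction. Gsta3 codes for an alpha-class glutathione transferase. Its log2 ratio was 0.63, -0.52, -0.15, -0.49 and -0.38 in controls 2, 3, 4, 5 and 6, and 3.07, 2.69, 3.21, 2.48 and 3.12 in animals 81, 83, 84, 86 and 87. The groups were far apart and the treated animals lay close together. The log2 change was 3.09 ± 0.29 (SE, n = 5 and 5, limma adjusted p 2.53e-09), or 8.54-fold, and it was called in every alternative tried, median centring and the test against 1.5-fold included. A second, brighter probe of Gsta3 changed by -0.10 ± 0.28 (adjusted p 0.846), and the alpha-class genes are near copies of one another, so which transcript the rise belongs to is uncertain.

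Akr7a3 codes for an aldo-keto reductase that reduces dialdehydes such as that of aflatoxin. Its log2 ratios were 2.59, 2.19, 1.67, 1.71 and 1.15 in the controls and 4.51, 4.95, 5.39, 3.89 and 5.17 in the treated males. The lowest treated animal, 86, lay well above the highest control. The log2 change was 2.92 ± 0.44 (SE, adjusted p 6.2e-05).

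Gstp1 codes for the pi-class glutathione transferase, which adult rat hepatocytes have little of and which marks preneoplastic foci in this species. In the controls its log2 ratio was -2.83, -2.68, -3.24, -2.71 and -3.20. In the treated males it was -0.34, -0.39, 0.51, -2.25 and 1.01. Animal 86 lay only just above the controls, whereas the other four lay far above them. The log2 change was 2.64 ± 0.38 (SE, adjusted p 3.87e-05), and 3.13 was the largest value when 1 array was left out.

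Gpx2, a glutathione peroxidase best known from gut epithelium, followed the same order of animals. It measured -4.00, -4.59, -4.59, -4.13 and -3.87 in controls and -1.85, -2.06, -1.15, -3.13 and -0.52 in treated males. The log2 change was 2.50 ± 0.46 (SE, adjusted p 0.000931), and a second probe rose by 1.16 ± 0.26 (adjusted p 0.00851). The groups did not overlap for the first probe.

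The 300 bases around the starts of Gstp1 and Gpx2 are shown because both genes rose strongly and both windows hold the core of an antioxidant response element, TGACNNNGC on either strand, here in capitals. They run from upstream of the start to 50 bases after it and are from RefSeq on the GRCr8 build. The Gstp1 window is chr1:210769656-210769955 on the minus strand and the Gpx2 window chr6:101229984-101230283 on the minus strand.
Gstp1: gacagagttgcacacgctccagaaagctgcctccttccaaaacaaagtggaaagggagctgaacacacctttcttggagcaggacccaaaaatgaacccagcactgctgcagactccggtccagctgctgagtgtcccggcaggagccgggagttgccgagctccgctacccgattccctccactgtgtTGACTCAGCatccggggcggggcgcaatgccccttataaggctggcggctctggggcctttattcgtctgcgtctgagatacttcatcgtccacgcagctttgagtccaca
Gpx2: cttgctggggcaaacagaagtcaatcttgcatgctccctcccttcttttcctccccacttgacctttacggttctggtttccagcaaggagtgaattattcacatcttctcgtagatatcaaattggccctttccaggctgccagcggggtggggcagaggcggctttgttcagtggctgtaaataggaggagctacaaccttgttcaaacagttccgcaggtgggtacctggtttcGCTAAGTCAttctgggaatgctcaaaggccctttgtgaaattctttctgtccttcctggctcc
The match starts 61 bases before the start of Gstp1 and 13 bases before that of Gpx2. The core is found in 12.1% of 33469 promoter windows of this length. Of the 12 genes with the largest rises, 10 had 1 window each in the table, and 6 of these held it. Of the 12 with the largest falls, 11 had 1 window, and 3 held it. A match of these letters is a description of the sequence and not a bound site.

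Beyond these, the NRF2 targets other than glutathione transferases moved mostly one way. Of 22 measured genes, 20 were higher in treated males, with a median log2 change of 0.36 against -0.04 over all probes. With median centring 14 were higher and the median was 0.16. Called higher were 4 of the 22 (1.41% of all probes were called higher), and 0 were called lower. Apart from Akr7a3 and Gpx2 these were Akr1b8, another aldo-keto reductase (1.81 ± 0.45 SE, adjusted p 0.0156), and Srxn1, which repairs peroxiredoxins (0.84 ± 0.20, adjusted p 0.0107). Both lost the call without animal 87. Akr1b8 ranged from -3.63 in animal 86, inside the control range of -4.07 to -3.44, to -0.04 in animal 87. Not called were Nqo1, a quinone reductase, at 0.98 ± 0.35 (adjusted p 0.106), Ugdh, which makes the sugar donor of glucuronidation, at 0.74 ± 0.26 (adjusted p 0.0996), and Ftl1, a ferritin chain, at 0.71 ± 0.26 (adjusted p 0.121). At an unadjusted p under 0.05, 11 of the 22 were higher and 0 lower, where 9.16% of all probes were higher. With slide as a block 7 were called higher, where 2.43% of all probes were, and 8 with that block and no dim array, where 2.67% of all probes were higher and 2.4% lower. The count was 2 without animal 87 and 8 without animal 86.

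The glutathione transferases themselves did not move together. Taken by the brightest probe of each gene, only Gstp1 was called among 21 measured, where 1.41% of all probes were called higher. Of the 21, 16 were lower, with a median of -0.21 that was 0.02 with the liver channel alone. Gsta3 enters this list by its brighter probe (-0.10), so its other probe, which rose by 3.09 and was called, is not counted here. Gstz1 changed by -0.60 (adjusted p 0.166), Gstm7 by -1.01 (adjusted p 0.215) and Mgst1 by -0.71 (adjusted p 0.292). Among 24 aldo-keto reductases, alcohol and aldehyde dehydrogenases, the median was 0.06. It was -0.10 with median centring and -0.0072 with the ratio of the scanner software. Of the 24, 0 were called lower and 4 were called higher, where 1.41% of all probes were called higher. The 4 called were Akr7a3 and Akr1b8, also counted above, with Akr1a1, a widely expressed aldehyde reductase (0.84 ± 0.21 SE, adjusted p 0.0178, not called without controls 2 or 5 or animals 83 or 87), and Akr1b7. The Akr1b7 probe was not well above background in any control and was so in 3 of 5 treated males, which makes it at least 1.7-fold higher (adjusted p 0.0186, not called without control 5 or animal 84). Without animal 87 the list had 2 calls. Aldh2 (-0.69), Adh7 (-0.38) and Akr1c1 (-1.42) were not called.

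Metallothioneins bind zinc and copper. Mt2A had log2 ratios of -0.21, -1.07, -1.15, -0.39 and -1.49 in the controls and 1.85, 0.86, 1.41, 2.47 and 2.62 in the treated males. Here animal 86 was among the highest. The log2 change was 2.70 ± 0.64 (SE, adjusted p 0.0115), and a second probe rose by 2.21 ± 0.49 (adjusted p 0.00667). Mt1 rose by 1.84 ± 0.52 (SE, adjusted p 0.0358), from 0.57 to 1.41 in controls to 2.28 to 3.48 in treated males. Mt2A lost the call without animal 87. Mt1 was called in 7 of the 14 fits described above and lost the call without any 1 of the 5 controls or of animals 81 and 87. Of 8 measured metallothionein and zinc transport genes, Mt1 and Mt2A were the only ones called, where 1.41% of all probes were called higher. The other 6 were lower. Among them the zinc exporter Slc30a1 changed by -0.64 (adjusted p 0.121), Slc39a8 by -0.57 (adjusted p 0.274) and Slc30a10 by -0.23 (adjusted p 0.492).

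Mt1 and Mt2A are neighbours on chromosome 19. Their promoter windows are shown because both genes rose and both are rich in a loose form of the core of the metal response element. This form is TGCNCNC on either strand, in capitals. It leaves free a base that is A or G in the core, so a match need not be a core. GAGAGCA in Mt1 and GAGGGCA in Mt2A match only the loose form. They are chr19:10832926-10833225 for Mt1 and chr19:10838659-10838958 for Mt2A, on the minus strand of GRCr8, from RefSeq.
Mt1: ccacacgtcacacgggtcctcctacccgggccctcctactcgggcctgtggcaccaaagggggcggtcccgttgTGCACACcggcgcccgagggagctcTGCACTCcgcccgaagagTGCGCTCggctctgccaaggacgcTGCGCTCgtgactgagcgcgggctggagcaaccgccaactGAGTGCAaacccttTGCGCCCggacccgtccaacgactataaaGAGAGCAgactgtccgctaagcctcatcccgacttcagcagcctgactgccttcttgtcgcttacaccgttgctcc
Mt2A: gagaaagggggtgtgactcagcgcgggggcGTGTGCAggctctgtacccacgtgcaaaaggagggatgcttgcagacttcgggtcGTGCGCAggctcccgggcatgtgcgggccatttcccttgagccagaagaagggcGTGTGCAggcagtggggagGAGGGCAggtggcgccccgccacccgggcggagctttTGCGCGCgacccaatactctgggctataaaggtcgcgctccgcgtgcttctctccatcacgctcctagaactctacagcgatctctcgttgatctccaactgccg
The Mt1 window holds 7 matches of the loose form and the Mt2A window 5. At least 1 match is found in 49.6% of all windows and at least 4 in 1.95%. Of the genes with 1 window, 6 of the 10 with the largest rises and 9 of the 11 with the largest falls hold a match, and Id4, which fell, has 4. Each of the windows also holds 1 antioxidant response element core, and matches of the motifs may overlap.

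Export and conjugation genes gave a few large rises among many that were not called. Abcb1b codes for a P-glycoprotein that pumps compounds out of cells. Its log2 ratios were 0.43, 1.09, -0.25, 0.08 and -0.73 in controls and 2.29, 2.34, 3.77, 1.65 and 3.29 in treated males. The change was 2.54 ± 0.42 (SE, adjusted p 0.000281), and 1.56 ± 0.28 (adjusted p 0.0008) by a brighter probe. It was the only one called of 19 measured membrane transporters, whose median was -0.41. Of all probes tested 1.41% were called higher. Abcg5, a sterol exporter, changed by 1.55 ± 0.67 (adjusted p 0.191), and the uptake carriers Slco2b1 and Slco1a4 by -1.28 (adjusted p 0.13) and -0.68 (adjusted p 0.21). Ugt2b7 was the only one called of 15 glucuronosyltransferases and sulfotransferases, at 1.60 ± 0.28 (adjusted p 0.000455), and it was above background in 3 of 5 controls. In this list Sult1c2 changed by -0.67 (adjusted p 0.0522), Sult1c3 by -1.39 (adjusted p 0.214) and Ugt2b37 by -0.70 (adjusted p 0.291). Of 44 measured cytochromes P450, 0 were called and 39 were lower, with a median of -0.73. Their mean log2 ratio in controls was 5.11, in the range of the highest quintile of all probes by liver/reference ratio. In that quintile 87.8% of probes were lower, with a median change of -0.41. Blocking on slide gave 3 P450 genes called higher and 1 lower (median -0.44), where 2.43% of all probes were called higher and 1.38% lower. With the dim array also left out it gave 3 and 9, where 2.67% and 2.4% of all probes were called. With the liver channel alone 11 of the 44 were higher (median -0.36). Limma gave 4 of them higher and 6 lower at an unadjusted p under 0.05, where 10.1% of all probes were lower. Cyp2c12, the female-specific form of the rat, changed by 1.55 ± 0.50 (adjusted p 0.0685), Cyp51 by -0.46 (adjusted p 0.131) and Cyp2d5 by -1.03 (adjusted p 0.136).

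Rises also reached enzymes of sugar and serine metabolism. Cryl1 codes for a gulonate dehydrogenase of the uronate pathway. It measured 1.47, 0.35, 0.27, 1.37 and 0.79 in controls and 2.54, 3.11, 3.17, 3.41 and 2.73 in treated males, a change of 2.14 ± 0.31 (SE, adjusted p 4.77e-05). Animal 86 was the highest for it. Phgdh, which starts serine synthesis from glucose, measured -2.34, -2.75, -2.55, -3.02 and -3.16 in controls and -0.51, -1.15, -1.55, -1.33 and -0.51 in treated males, a change of 1.76 ± 0.26 (adjusted p 6.2e-05). Pycr1, the last step to proline, rose by 0.83 ± 0.25 (adjusted p 0.0447) and was called in 6 of the 14 fits, which did not include those without control 2, 3, 4 or 5 or any 1 of animals 81, 83, 84 and 87. Both belong to a list of 24 endoplasmic reticulum stress and amino acid response genes whose median was 0.02, or -0.14 with median centring. In the same list Sdf2l1, an endoplasmic reticulum protein, fell by 0.67 on the log2 scale (adjusted p 0.0213, not called with slide as a block nor without control 2 or 5), while Pdia4 (-0.60), Chac1 (-0.43) and Sesn2 (-0.57) were not called. Other rises called in all 14 fits were in Car2, a carbonic anhydrase (1.32 ± 0.24), Ica1, a protein of secretory vesicles (1.31 ± 0.16), Lgals2, a galectin (1.28 ± 0.23), Nme4, a mitochondrial nucleoside diphosphate kinase (1.17 ± 0.16), Tmem120a (1.35 ± 0.21), Npw, a neuropeptide precursor (1.32 ± 0.23), Tusc3, a subunit of the oligosaccharyltransferase (1.39 ± 0.28), and C1h11orf24 (1.35 ± 0.26). Smaller ones were in Ripor2 (1.06), Dcakd (0.90), Wdr31 (0.90) and Bspry (0.88, with a second probe at 0.05).

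Genes of bile duct and progenitor cells were the list with the most calls. Of 22 measured, 7 were called higher and 0 lower, 18 were higher, and the median was 0.65 against -0.04 over all probes. With median centring 19 were higher and the median was 0.43. The list's mean log2 ratio in controls was -0.44, in the range of the second quintile of liver/reference ratio (median change 0.10, 31% lower). Of the called members, Cd24, Epcam and Tspan8 had control means in the range of the lowest quintile (median change 0.27), and Kif12, Krt8, Krt18 and Cftr did not. Of all probes tested 1.41% were called higher. Kif12, a kinesin of ductular and kidney epithelium, measured -0.41, -0.49, -0.42, 0.02 and -0.25 in controls. In treated males it measured 0.42, 0.91, 1.32, -0.03 and 1.79, so that animal 86 lay among the controls. Its change was 1.19 ± 0.21 (SE, adjusted p 0.000475). Cd24, a surface protein of progenitor and duct cells, measured -2.15, -1.91, -2.58, -1.76 and -2.17 in controls and -0.78, -1.17, -0.67, -0.90 and -0.65 in treated males, with no overlap, and it rose by 1.28 ± 0.23 (adjusted p 0.000882). Both were called in all 14 fits. The keratins Krt8 (1.30 ± 0.32, adjusted p 0.0141) and Krt18 (1.07 ± 0.29, adjusted p 0.0273), which hepatocytes also make, rose as well. So did Epcam, an epithelial adhesion molecule (0.98 ± 0.23, adjusted p 0.00937), Tspan8, a tetraspanin (0.94 ± 0.27, adjusted p 0.0396), and Cftr, a chloride channel of duct cells (0.77 ± 0.23, adjusted p 0.0452). Tspan8 and Cftr were each above background in 2 of 5 controls and 4 of 5 treated males. For each of Krt8, Krt18, Epcam, Tspan8 and Cftr the groups overlapped, and each lost the call without animal 87. Krt18 also lost it without control 3, 4 or 5 or animal 84, Tspan8 without control 2, 3, 4 or 5 or animal 81 or 83, and Cftr without control 2, 3, 4 or 6 or animal 84. Krt19, the keratin usually used to stain ducts, changed by 0.76 ± 0.24 (adjusted p 0.0565), Krt20 by 0.84 ± 0.29 (adjusted p 0.0933) and Slc4a2, a bicarbonate exchanger, by -0.30 (adjusted p 0.194). With slide as a block 11 of the 22 were called higher, against 2.43% of all probes. Without animal 87 there were 2 calls, without animal 86 there were 8, and without control 3 or control 4 there were 4. In bulk liver, more cells of a type and more RNA per cell cannot be told apart.

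Other cell types of the liver gave few calls. Of 23 measured stellate cell and matrix genes, 0 were called and 19 were higher, with a median of 0.27, against 12 and 0.06 with median centring. Their mean log2 ratio in controls was -1.77, in the range of the lowest quintile of liver/reference ratio, in which the median change of all probes was also 0.27 and 14.2% were lower. Limma gave 4 of them higher and 1 lower at an unadjusted p under 0.05: Timp1, an inhibitor of matrix proteases, changed by 0.92 ± 0.35 (adjusted p 0.136), Des by 0.42 (adjusted p 0.19) and Fn1, which hepatocytes make too, by -0.52 ± 0.14 (adjusted p 0.0275, under the fold limit). Of 19 Kupffer cell and macrophage genes, 0 were called and 2 were higher at an unadjusted p under 0.05. They were Lyz2 (0.78 ± 0.25, adjusted p 0.0704) and Gpnmb (1.09 ± 0.37, adjusted p 0.0824), while Marco changed by -1.06 (adjusted p 0.353), and the median was -0.27. When slide was a block 2 macrophage genes were called higher, where 2.43% of all probes were. The median of the macrophage list was then -0.06, and with the liver channel alone it was -0.07. Neutrophil and lymphocyte genes (10 measured, median 0.01, or -0.03 with the ratio of the scanner software and -0.000566 with an offset of 10) and liver endothelium genes (7 measured, median -0.18, or 9.55e-05 with the ratio of the scanner software) had 0 calls and 0 genes at an unadjusted p under 0.05, with Ptprc at 0.38, Cd3d at 0.18, Prf1 at -0.21, Cdh5 at -0.28, Flt4 at -0.29 and Kdr at -0.51. Red cell genes had 0 calls among 6, all lower, with a median of -0.92 and 2 at an unadjusted p under 0.05. Their mean log2 ratio per array ran from 2.53 to 4.78 in controls and from 2.22 to 3.5 in treated males. Slc4a1, Hbb and Alas2 changed by -1.05, -0.94 and -1.05.

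**Figure D2:**
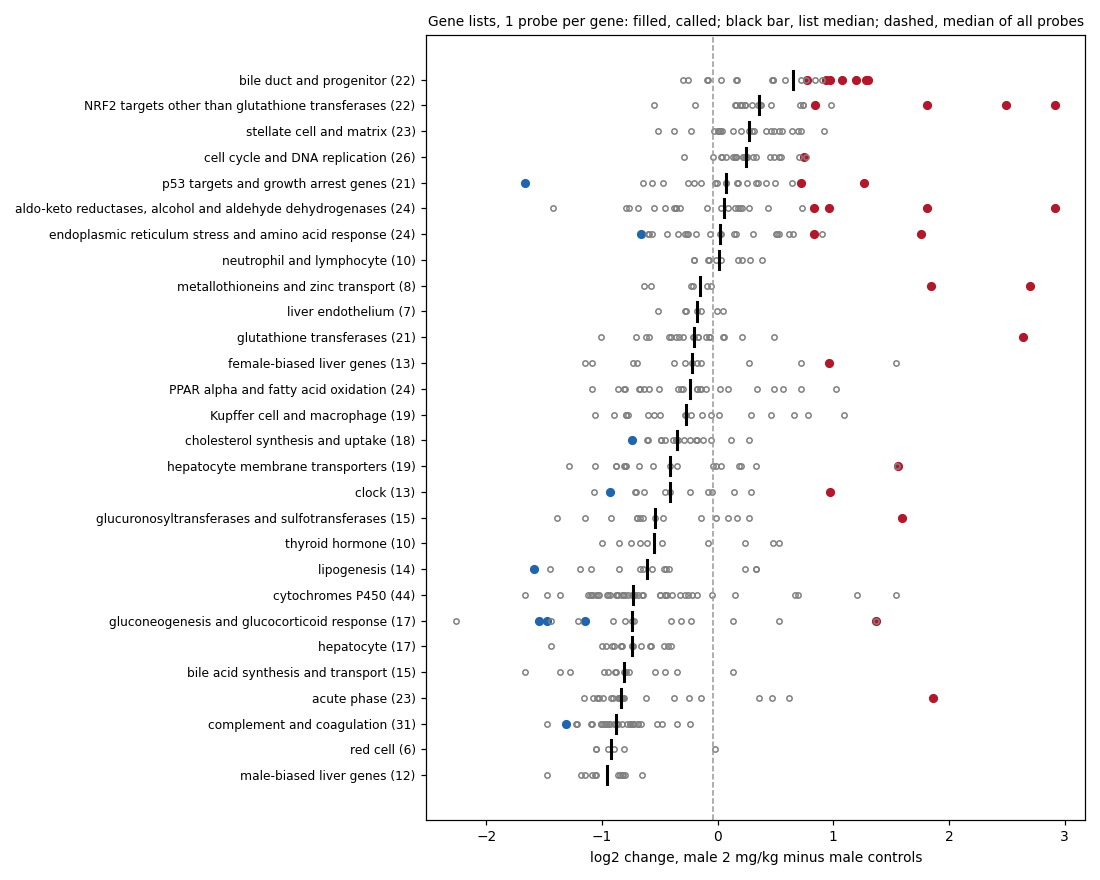
Log2 change of each measured gene of 28 lists in males at 2 mg/kg against controls, by the brightest probe of each gene, with the number measured in brackets. Filled points are called, red higher and blue lower, black bars are list medians, and the dashed line is the median of all probes (-0.04). Bile duct and progenitor genes have the highest median (0.65) and male-biased liver genes the lowest (-0.96), the latter with no called member.

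Among named genes whose treated arrays all lay beyond all controls, the largest falls were in less familiar genes. The largest called fall, 5.72-fold, was not among these. Srms, a kinase related to Src, measured 2.98, 2.47, 2.80, 3.02 and 1.49 in controls and 0.45, 0.42, 0.92, 1.11 and 0.47 in treated males, and fell by 1.88 on the log2 scale (SE 0.38, adjusted p 0.00259). Gimd1, a GTPase family member, measured 2.01, 2.43, 2.43, 3.09 and 1.56 in controls and 0.32, 0.37, 1.26, 0.34 and -0.11 in treated males. It fell by 1.87 (SE 0.37, adjusted p 0.00192) and was above background in 1 of 5 treated males, so that the size of the fall is uncertain. The change was -1.17 with median centring and -4.01 with the ratio of the scanner software. Slc34a2, a phosphate carrier, measured 3.05, 2.45, 2.07, 3.09 and 1.28 in controls and 0.36, 0.67, 1.07, 0.88 and 0.50 in treated males, and fell by 1.69 (SE 0.30, adjusted p 0.000648). It was above background in 3 of 5 treated males. Its change was -0.94 with the liver channel alone and -3.17 with the ratio of the scanner software. In each of these genes control 6 was the lowest control and still lay above all treated males. Mmd2 was above background in 5 controls and 0 treated males and was at least 2.97-fold lower (adjusted p 0.0362, not called without control 3, 4 or 5 or animal 81, 83, 84 or 87).

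Further falls were in Slc25a25, a mitochondrial carrier of adenine nucleotides (-1.75 ± 0.32), Oaf (-1.61 ± 0.22), Id4, an inhibitor of DNA-binding factors (-1.60 ± 0.33), Plekhb1 (-1.54 ± 0.30), Wsb1, part of a ubiquitin ligase (-1.52 ± 0.26), and Rnf125, a ubiquitin ligase (-1.51 ± 0.33), each called in all 14 fits. Oaf measured 0.59, 1.21, 1.30, 0.89 and 1.18 in controls and -0.88, 0.13, -1.06, -0.38 and -0.66 in treated males, and its adjusted p of 2.06e-05 was the lowest among the named falls. Smaller falls called in all 14 fits were in Cd164, a sialomucin (-0.85 ± 0.16), and Kiaa0040 (-0.88 ± 0.15). Cgref1 was the only named gene above background in at least 4 treated males and 0 controls, at least 1.47-fold higher (adjusted p 0.00743, not called without animal 84). Besides Mmd2, Il13, Pif1, Rtp1 and Lpar3 were above background in 4 controls and 0 treated males and 0 were called. Their log2 changes were -0.18, -0.09, -0.24 and -0.11, and each turned to higher in treated males with median centring.

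Genes that answer to glucocorticoids and fasting moved in both directions. Of 17 measured, 1 was called higher and 3 lower, where 1.41% of all probes were called higher and 0.81% lower. The median was -0.74. Fkbp5, a chaperone of the glucocorticoid receptor, measured -0.47, -0.72, -0.45, -0.79 and -0.66 in controls and 1.31, 0.52, 0.70, 0.63 and 0.57 in treated males, and rose by 1.37 ± 0.26 (adjusted p 0.00128). Sgk1, a kinase that glucocorticoids raise, measured 1.44, 1.31, 1.12, 2.24 and 0.62 in controls and -0.37, -0.24, 0.67, -0.42 and -0.30 in treated males, and fell by 1.48 (SE 0.27, adjusted p 0.000709). Animal 84 lay just above the lowest control. Dusp1, a phosphatase induced by stress, fell by 1.54 (SE 0.36, adjusted p 0.0101), and Igfbp1, an insulin-like growth factor binding protein raised by fasting, by 1.15 (SE 0.27, adjusted p 0.0107). Dusp1 was not called without control 3 nor Igfbp1 without control 4. Not called were Sds, a serine dehydratase, at -2.26 ± 0.85 (adjusted p 0.127), Sik1 at -0.80 (adjusted p 0.053) and Klf9 at 0.53 (adjusted p 0.0875). With slide as a block 2 were called higher and 6 lower, where 2.43% of all probes were called higher and 1.38% lower.

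Among 13 clock genes, 1 was called higher and 1 lower, where 1.41% of all probes were called higher and 0.81% lower. Of the 13, 10 were lower (median -0.42). Dbp, an output gene of the clock, rose by 0.98 ± 0.23 (adjusted p 0.0115, not called without animal 87), and Bhlhe40, a repressor, fell by 0.93 (SE 0.19, adjusted p 0.00275). Npas2 (-1.07), Cry1 (-0.64) and Per2 (-0.71) were not called, at adjusted p values of 0.067, 0.0703 and 0.0725. With slide as a block 1 clock gene was called higher and 5 lower, where 1.38% of all probes were lower. The hour of sampling of each rat was not used here.

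Lipid genes were mostly lower. In controls the mean log2 ratio was 1.89 for lipogenesis, 3.21 for fatty acid oxidation and 5.68 for bile acid genes. These means lie in the range of the highest quintile of liver/reference ratio. In that quintile 87.8% of all probes were lower, with a median change of -0.41. The mean of the cholesterol genes was 0.85, in the range of the fourth quintile (78.5% lower, median -0.19). Fasn, which makes fatty acids, measured 0.20, 0.84, 1.15, 2.28 and 1.69 in controls and -0.75, 0.40, 0.18, -1.32 and -0.29 in treated males. The groups overlapped, and it fell by 1.59 (SE 0.37, adjusted p 0.0102), without the call once control 5 was left out. It was the only one called of 14 lipogenesis genes, whose median was -0.61. Of all probes tested 0.81% were called lower. Acly changed by -1.09 (adjusted p 0.0785), Gpam by -0.57 (adjusted p 0.167) and Acaca by -0.42 (adjusted p 0.0316, under the fold limit). Stard4, a cholesterol carrier, was the only one called of 18 cholesterol synthesis and uptake genes, with a fall of 0.74 (SE 0.13, adjusted p 0.000363) and a second probe at -0.35. The list's median was -0.35, with Cyp51 at -0.46, which was not called. Its mean per array was 0.60 to 1.05 in controls and 0.46 to 0.63 in treated males. The 24 genes of fatty acid oxidation had 0 calls and a median of -0.24, with Acot1 at 0.72, Acadm at -0.68 and Acaa1a at -0.60, and limma gave 1 higher and 2 lower at an unadjusted p under 0.05. The slide block gave 3 of them called higher and 0 lower, where 2.43% of all probes were called higher and 1.38% lower. The 15 bile acid genes had 0 calls and a median of -0.81. Cyp7a1, the rate-limiting enzyme of bile acid synthesis, changed by -1.67 ± 0.73 (adjusted p 0.201), Cyp7b1 by -1.37 ± 0.53 (adjusted p 0.143) and Hsd3b7 by -0.79 (adjusted p 0.304), and 2 of the list were lower at an unadjusted p under 0.05 by limma.

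Growth control genes split. Of 21 p53 targets and growth arrest genes, 2 were called higher and 1 lower, where 1.41% of all probes were called higher and 0.81% lower. Their median was 0.08, or -0.08 with median centring. Ccng1, a cyclin raised by p53, measured -1.83, -1.39, -1.46, -1.78 and -0.93 in controls and 0.06, 0.20, -0.49, -1.20 and 0.39 in treated males. Animal 86 again lay inside the control range, and the change was 1.27 ± 0.30 (adjusted p 0.0102, not called without animal 87). Mgmt, which removes alkyl groups from DNA, rose by 0.72 ± 0.18 (adjusted p 0.013) with no overlap between the groups. Gadd45g, a stress sensor, measured 1.85, 1.60, 1.42, 0.63 and 1.48 in controls and -1.26, 0.44, -0.09, -1.06 and 0.61 in treated males, and fell by 1.67 (SE 0.41, adjusted p 0.013, not called without animal 81). Bax (0.42), Mdm2 (0.65) and Sesn2 (-0.57) were not called. Of 26 cell cycle and DNA replication genes only Tyms, which makes thymidylate, was called, at 0.74 ± 0.15 (adjusted p 0.00334). Of the 26, 24 were higher, with a median of 0.24 that was 0.10 with slide as a block and 0.00862 with median centring. Their mean log2 ratio in controls was -2.16, also in the range of the lowest quintile (median change 0.27). Of the uncalled members, Mcm3 changed by 0.71 (adjusted p 0.239), Mcm2 by 0.45 (adjusted p 0.339) and Ccne1 by 0.30 (adjusted p 0.361).

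Plasma proteins and other genes that mark hepatocytes were mostly lower, few of them with a call. Of all probes tested, 1.41% were called higher and 0.81% lower. In controls the mean log2 ratio was 6.22 for hepatocyte, 6.05 for complement and coagulation, 4.98 for acute phase and 7.52 for male-biased genes. These means lie in the range of the highest quintile of liver/reference ratio. In that quintile 87.8% of all probes were lower, with a median change of -0.41. All 17 measured hepatocyte genes were lower, with a median of -0.74 and 0 called, and 2 at an unadjusted p under 0.05 by limma. With the liver channel alone the median was -0.19 and 6 of the 17 were higher. Alb, the gene of albumin, changed by -0.84 ± 0.36 (adjusted p 0.186), Tat by -1.44 ± 0.65 (adjusted p 0.212) and F2 by -0.82 ± 0.43 (adjusted p 0.289). Their mean log2 ratio was 6.41, 6.71, 6.19, 6.79 and 5.01 in controls and 5.06, 5.32, 6.14, 5.96 and 4.79 in treated males, so that the tissue was liver on every array and the groups overlapped. Of 31 complement and coagulation genes, all were lower (median -0.88), and Cfi, which cuts complement fragments, was called (-1.31 ± 0.38, adjusted p 0.0399, not called without control 2, 3, 4 or 5 or animal 81, 83 or 87). F7 (-1.48), C4a (-0.69) and C1r (-0.48) were not. Of 23 acute phase genes, 19 were lower (median -0.83, or -0.44 with slide as a block and -0.19 with the liver channel alone), but A2m, a protease inhibitor that rises in the injured and fetal rat liver, rose by 1.86 ± 0.43 (adjusted p 0.00887). It measured -2.53, -1.80, -2.11, -1.81 and -1.72 in controls and 0.81, -0.67, 0.58, -1.96 and 0.57 in treated males, with animal 86 again among the controls, and it was not called without animal 87. In that list Stat3, the factor behind interleukin 6 responses, changed by 0.47 ± 0.13 (adjusted p 0.0317, under the fold limit), Serpina3n by -0.81 (adjusted p 0.217) and Itih4 by -0.92 (adjusted p 0.229). The 12 male-biased liver genes were all lower (median -0.96, 0 called and 0 at an unadjusted p under 0.05), with Cyp3a2 at -1.47 ± 0.82, Mup4 at -1.18 ± 0.63 and Ust5r at -0.84 ± 0.44. Of 13 female-biased genes, 9 were lower (median -0.22, or 0.03 with median centring and 0.12 with slide as a block) and Akr1b7, described above, was the only one called, with Cyp2c7 at -1.09. Blocking on slide gave 3 called higher and 1 lower, where 2.43% of all probes were called higher and 1.38% lower. The 10 thyroid hormone genes had 0 calls and a median of -0.55, with 2 higher at an unadjusted p under 0.05 by limma: Dio3, an inactivating deiodinase, at 0.48, and Klf9, also in the glucocorticoid list. Mlxipl changed by -0.85.

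**Figure D3:**
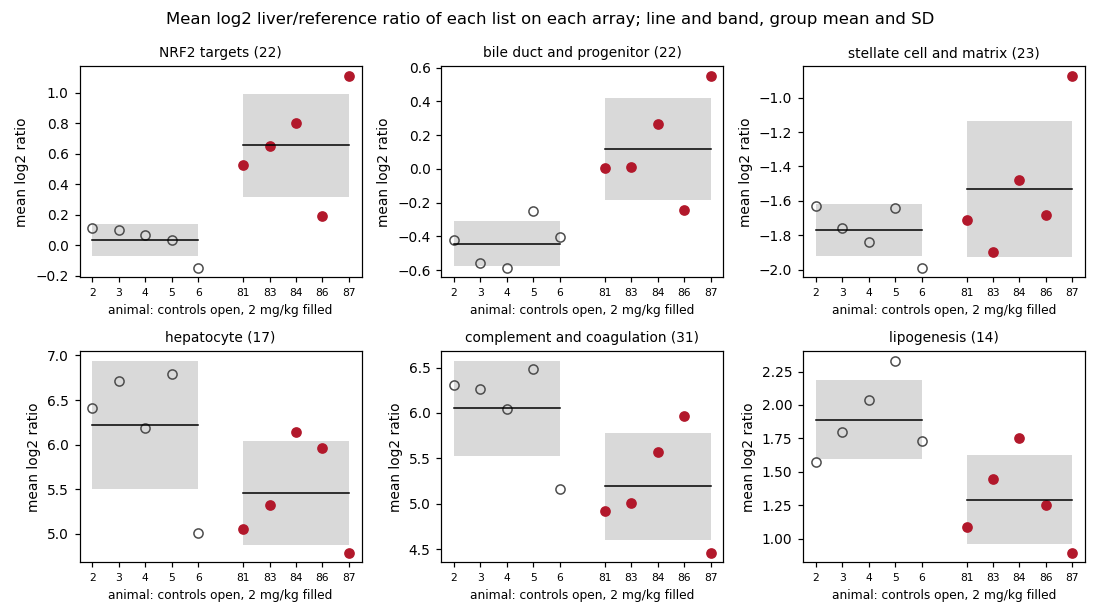
Mean log2 ratio of the measured genes of 6 lists on each of the 10 arrays, with the number of genes in brackets. Open points are controls, filled points males at 2 mg/kg, and lines and bands are group means and SDs. For NRF2 targets and for bile duct and progenitor genes all 5 treated arrays lie above all controls with animal 86 lowest. For the bile duct list animal 86 (-0.245) and control 5 (-0.251) nearly coincide. For hepatocyte and complement genes control 6 lies among the treated arrays.

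The size and sign of a change followed how high a gene's liver signal stood over the reference. Probes were divided into quintiles by their mean log2 ratio on the 10 arrays of males at 0.12 and 0.5 mg/kg, which take no part in the comparison. From the lowest to the highest quintile the median log2 change was 0.27, 0.10, -0.06, -0.19 and -0.41, and 14.2%, 31%, 62.4%, 78.5% and 87.8% of probes were lower in treated males. The lowest quintile held 140 of the 249 rises and 5 of the 143 falls, and the highest quintile 26 rises and 69 falls. The spread of log2 ratios over all probes moved with the groups. Its SD was 1.67, 1.67, 1.61, 1.74 and 1.36 in controls 2 to 6 and 1.25, 1.38, 1.53, 1.61 and 1.17 in animals 81, 83, 84, 86 and 87. With slide as a block the medians of the lowest and highest quintiles were 0.14 and -0.23, and with the liver channel alone 0.14 and -0.18. On slide 4, where both arrays had similar shares of spots above background (69.6% and 69.4%), they were 0.20 and -0.38. On slide 8 they were 0.34 and -0.21, and on slide 2 the lowest quintile stood at 0.00086 and the highest at -0.11. The part of array contrast in the medians of the highly expressed lists was not tested. Of the genes with the largest rises, Gstp1, Gpx2, Phgdh, Tusc3 and C1h11orf24 lie in the lowest quintile. Of those with the largest falls, Rnf125, Plekhb1, Id4, Slc25a25, Srms, Gimd1, Slc34a2 and Mmd2 lie in the highest. Against this order, Akr7a3, Cryl1, Mt1 and Mt2A lie in the highest quintile and rose, and Wsb1 lies in the lowest and fell. The arrays that set the quintiles were themselves from males given furan. Mt2A stood at -0.86 in controls and at 1.10 and 0.91 at 0.12 and 0.5 mg/kg, and Wsb1 at 0.01, -0.98 and -1.29. By control level, Mt2A is in the range of the lowest quintile (up to -0.71) and Wsb1 in that of the third (-0.118 to 0.299). The places of Mt2A and Wsb1 as exceptions thus depend on dosed arrays.

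**Figure D4:**
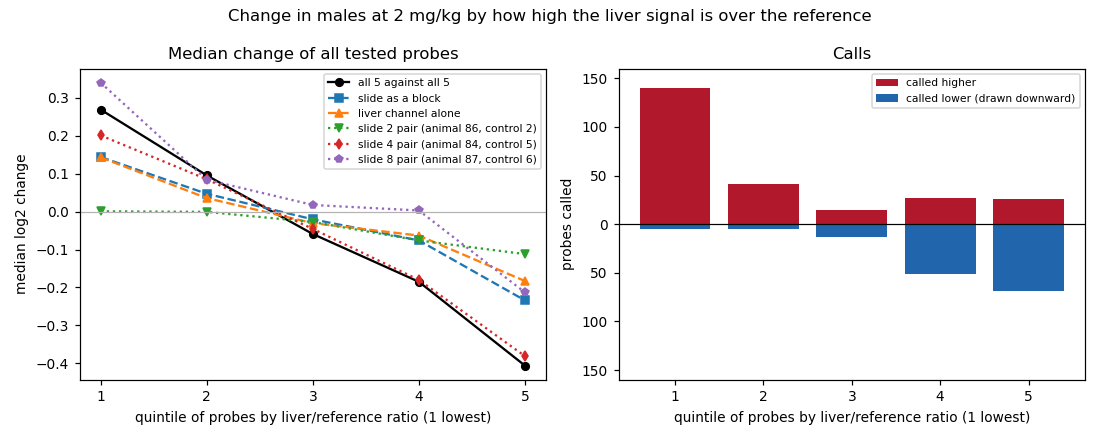
Left, median log2 change of all tested probes in quintiles by the liver/reference ratio of 10 other male arrays, for all arrays, with slide as a block, with the liver channel alone and for the pair of arrays on each of 3 slides. Right, numbers of probes called higher (up) and lower (down) in each quintile. The median runs from 0.27 in the lowest quintile to -0.41 in the highest, and 140 of the rises are in the lowest quintile.

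Treated animals differed in how far they moved. Over the 108 probes called in every fit, the median rise above the control mean was 1.03, 1.21, 1.31, 0.64 and 1.5 in animals 81, 83, 84, 86 and 87, and the median fall was -1.21, -1.35, -1.04, -0.88 and -1.49. The same arrays served to choose these probes, and the values only describe the animals. Animal 86 moved least and animal 87 most on both sides. The mean of the 22 NRF2 targets was 0.11, 0.10, 0.07, 0.03 and -0.15 in controls and 0.53, 0.65, 0.80, 0.19 and 1.11 in treated males. For the 22 bile duct and progenitor genes it was -0.42, -0.56, -0.59, -0.25 and -0.41 in controls and 0.01, 0.01, 0.27, -0.25 and 0.55 in treated males. Animal 86 (-0.245) and control 5 (-0.251) nearly coincided there. Without animal 86, 805 probes were called, and without animal 87, 141. Leaving out the scanner array of animal 83 gave 324. The matrix column of that number correlated with no scanner array above r = 0.645. Within slides, 386 of the 392 called probes had the same direction in the pair of slide 2, 391 in that of slide 4 and 389 in that of slide 8. All 108 probes called in every fit had it in each pair. These pairs are among the arrays that served to choose the probes, so that agreement in direction was largely built in. The share over all probes tested was not counted.

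Against the next lower dose, 0.5 mg/kg, 14 probes were called in males at 2 mg/kg (0.0793% of those tested), 13 higher (0.0736%) and 1 lower (0.00566%). With only the arrays of these groups in the fit, limma called 0, with 824 at an unadjusted p under 0.05. All 14 were also called against controls. The named ones with the largest differences were Gsta3 (2.59 ± 0.29 SE, adjusted p 4.75e-07) and Gstp1 (2.25 ± 0.38, adjusted p 0.00274). They were followed by Phgdh (1.21 ± 0.26, adjusted p 0.0498), Kif12 (0.98 ± 0.21, adjusted p 0.0387) and Ica1 (0.92 ± 0.16, adjusted p 0.005). Smaller differences were in Nme4 (0.78 ± 0.16, adjusted p 0.0387), Polr3g (0.75 ± 0.16, adjusted p 0.0388) and Wdr31 (0.61 ± 0.13, adjusted p 0.0387). Oaf was lower by a log2 difference of -1.11 ± 0.22 (adjusted p 0.0191). Akr7a3 differed by 1.62 ± 0.44 (adjusted p 0.21), with a log2 ratio of 3.16 ± 1.21 (SD, n = 5) at 0.5 mg/kg.

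Levels at the other doses are given side by side, with the controls shared by all doses. Gsta3 stood at -0.18 ± 0.48 (SD, n = 5) in controls, -0.16 ± 0.72 at 0.12 mg/kg, 0.32 ± 0.77 at 0.5 mg/kg and 2.91 ± 0.31 at 2 mg/kg. Gstp1 stood at -2.93 ± 0.27, -2.999 ± 0.36, -2.54 ± 0.56 and -0.29 ± 1.24 at the same doses. For both, the means at 0.12 and 0.5 mg/kg lay within 1 SD of the control mean by the larger SD. Sgk1 stood at 1.35 ± 0.59 in controls and at -0.34 ± 0.40, 0.25 ± 0.45 and -0.13 ± 0.45 at 0.12, 0.5 and 2 mg/kg, and Slc34a2 at 2.39 ± 0.75, 0.92 ± 0.35, 1.005 ± 0.58 and 0.70 ± 0.28. Fkbp5 stood at -0.62 ± 0.15, 0.71 ± 0.61, 0.63 ± 0.56 and 0.75 ± 0.32. For these genes 2 mg/kg and 0.5 mg/kg differed by -0.39 ± 0.27 (SE), -0.31 ± 0.30 and 0.12 ± 0.26 (limma adjusted p 0.9998 for each), and their means at 0.12 mg/kg were already near those at 2 mg/kg. Mt2A stood at -0.86 ± 0.54, 1.10 ± 1.13, 0.91 ± 1.25 and 1.84 ± 0.73, with wide spread at the lower doses. At 0.03 mg/kg, where the 4 arrays include the dim one, Gsta3 stood at 0.23 ± 0.68, Gstp1 at -2.29 ± 1.29, Mt2A at 0.17 ± 1.86, Sgk1 at -0.02 ± 0.40, Slc34a2 at 1.11 ± 1.05 and Fkbp5 at -0.18 ± 0.28. The mean of Gstp1 there was higher than at 0.12 and 0.5 mg/kg.

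**Figure D5:**
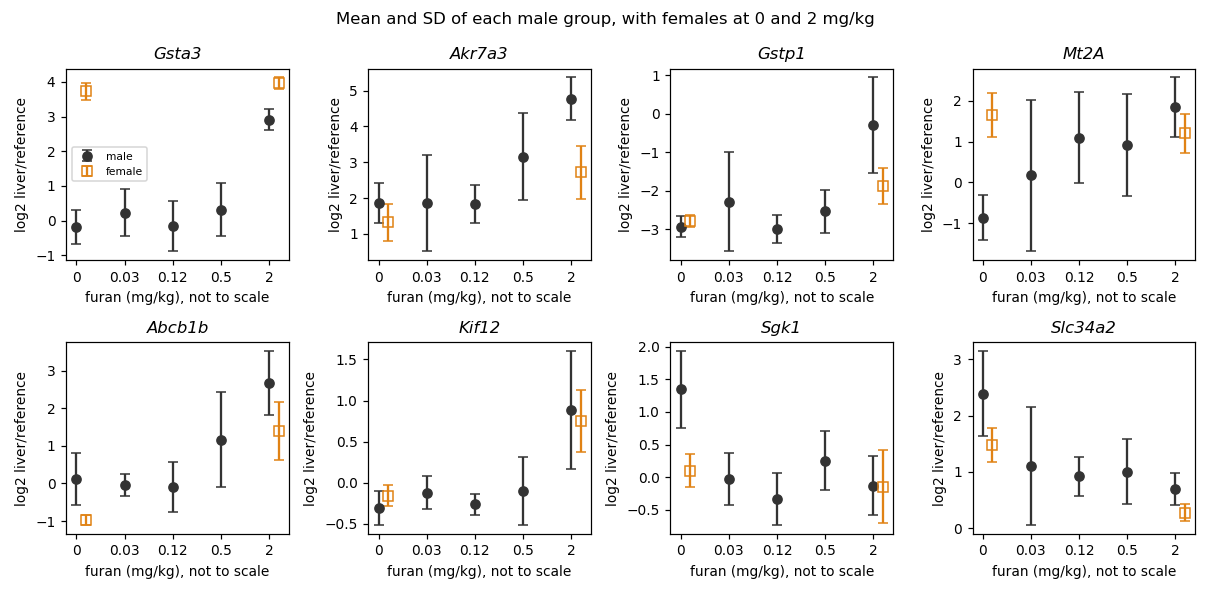
Mean log2 liver/reference ratio with SD of 8 genes in males (filled circles) at 0, 0.03, 0.12, 0.5 and 2 mg/kg and in females (open squares) at 0 and 2 mg/kg, 5 arrays per group except 4 for males at 0.03 mg/kg, which include the dim array. Gsta3 and Gstp1 stay near the control level at 0.12 and 0.5 mg/kg, whereas Sgk1 and Slc34a2 are lower than controls from 0.03 mg/kg up. Female Gsta3 and Mt2A stand above male controls without furan.

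The furan effect at 2 mg/kg differed between males and females for 2 probes (0.0113% of those tested, 762 by limma at an unadjusted p under 0.05). For Gsta3 the male effect exceeded the female one by 2.86 ± 0.41 (SE, adjusted p 0.000276). Female controls stood at 3.73 ± 0.25 (SD, n = 5) and females at 2 mg/kg at 3.97 ± 0.16, so that treated males at 2.91 ± 0.31 were nearer to females than to male controls. The other was probe A_44_P515441, which has no gene name here and rose in males from 0.53 ± 0.47 to 3.43 ± 1.02 and stood at 0.06 ± 0.10 and 0.25 ± 0.24 in females, a difference of effects of 2.71 ± 0.49 (adjusted p 0.0198). Mt2A was at 1.66 ± 0.54 in female controls and 1.20 ± 0.48 in treated females, and the difference of effects was 3.16 ± 0.91 (adjusted p 0.704). For Phgdh it was 1.75 ± 0.37 (adjusted p 0.0996). For Abcb1b, whose rise was 2.54 in males, it was 0.17 ± 0.60 (adjusted p 0.997), and by the brighter probe 0.98 ± 0.40 (adjusted p 0.997). For Akr7a3 and Gstp1 it was 1.52 ± 0.62 (adjusted p 0.997) and 1.73 ± 0.53 (adjusted p 0.708).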

How the data were processed

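Liver RNA of 49 rats was hybridised against a reference RNA on 2-colour Agilent arrays. The deposited scanner files hold, per the file headers, median pixel intensity of each spot and its local background in both channels, 0 or 1 marks of spot quality (unit other), and a log10 ratio from Agilent Feature Extraction 10.7.3.1 at 3 micrometres, on a design annotated on rn4. The deposited series matrix holds log2 ratios that the authors normalised in R, in 49 columns, with 0 columns left out. Its centring was not stated in the sources used here.

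Intensities were corrected by normexp with an offset of 50 and normalised within arrays by loess in limma 3.58.1 (R 4.3.3, with the data.table package). Spots of a probe were averaged without outlier spots. Of 30367 probes, 17661 were tested, those whose liver signal stood well above background on 4 or more arrays of some group. RefSeq accessions of GRCr8, used for names only, named 18004 probes (59.3%). The limma model had 1 mean per group over all arrays. Tests are 2-sided with Benjamini-Hochberg adjustment over all probes tested. Rats are the replicates, and their number limits the precision.

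Genes were named by rule: the 12 largest rises and 12 largest falls with separated groups, up to 30 genes called in all 14 fits, in each list the called members and up to 3 others with the lowest p, up to 5 genes in each direction above background in 1 group only, and calls between the sexes. Some genes that the rule names are not reported here. The 28 lists hold 570 genes, of which 478 had a tested probe. The members, lists, rule and tests were chosen with earlier results of these data known. For probes not above background on any array of a group, bounds compare normalised liver channels (loess and Aquantile), with the dim group at no less than the lowest signal above background, and are open to dye bias because dyes were not swapped. Motifs were counted in the promoter sequences of RefSeq. The fitting step was tested on simulated data. Alternatives changed the slide block, the arrays used, the normalisation, the background offset, the channel, the filter, the weights and the threshold.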

Additional observations from a re-analysis of the deposited data

Results flagged for a closer look

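Of 300 sets of 5 arrays examined for the named genes and array measures, 19 had 1 array far from the rest by Dixon's gap ratio above 0.71, where chance flags about 1 in 20. In 14 of these it was control 6, the dimmest control array. Its log2 ratios were 2.65 for Cyp7b1, -0.49 for Tspan8, 0.0218 for Per2, 3.51 for Gstm7, 1.93 for Mlxipl, 1.41 for Abcg5, 0.0383 for Akr1b7, -1.70 for C1h11orf24, 3.32 for Slco2b1, 0.84 for Marco, 3.84 for Ust5r, 1.26 for Slc30a1, 2.26 for Aldh2 and 2.52 for Plekhb1. Control 5 stood apart for Cftr at 1.13. Among treated males, animal 86 stood apart for C1h11orf24 at -1.69, animal 84 for Sgk1 at 0.67, and animal 81 for Prf1 at 0.85 and Fkbp5 at 1.31.

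The furan effect at 2 mg/kg differed between the sexes for Gsta3, by 2.86, and for the probe without a gene name, A_44_P515441, by 2.71, as tested by the interaction.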

How the results depend on the processing

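Against controls, where 392 probes were called, alternatives gave 673 with the slides blocked, 740 with the dim array left out, 895 with both, 131 with only the arrays compared, 11 with median centring, 397 with the liver channel alone (192 of them shared), 681 with the scanner software's ratio, 2007 with array weights (534 higher and 1473 lower) and 8 with the test against 1.5-fold. Leaving out 1 array gave 141 (animal 87) to 805 (animal 86), with 217 without control 5, 249 without animal 81 and 677 without control 6. Against 0.5 mg/kg the settings gave, from 14, in turn 86, 37, 198, 0, 1, 27, 44 and 1, with 75 for the liver channel alone and 42 for the series matrix. Leaving out 1 array gave 3 (animal 84) to 28 (animal 86), with 5 without animal 87 and 6 to 24 without 1 of animals 62, 63, 65, 68 and 70 at 0.5 mg/kg. For the difference between the sexes they gave, from 2, in turn 19, 5, 192, 14, 1, 4, 74 and 1, with 4 for the liver channel alone and 4 for an offset of 10. Leaving out 1 array gave 1 to 3, and 1 without male control 4 or 6, male 83 or 84, female control 4 or female 83 or 85. Gsta3 was called in the main fit of each comparison and in every fit against controls. Median centring moved the median of all probes to 0.11 against 0.5 mg/kg and to 0.32 for the sexes. Of 65 called probes of named genes, 64 kept the call with slide as a block, 8 with median centring, 44 with only the arrays compared and 49 without animal 87. The sign turned for Cd3d (-0.0662 with median centring and -0.0515 with the liver channel alone), for Prf1 (0.0206 with the slides blocked, 0.0234 with the dim array also left out, 0.0331 with the liver channel alone) and, with median centring, for Il13 (0.10), Slc30a10 (0.0779), Pif1 (0.19), Rtp1 (0.0545) and Lpar3 (0.13). Within slides the sign turned for 1 of the 65 called probes, Srxn1 on slide 2 (-0.15), and for 20 of the 83 others on at least 1 slide. The same arrays served to choose the called probes, so that fewer turns among them were built in. The cause of these shifts was not tested. The counts per gene list without each array were added after seeing the data. No paired analysis was possible because the male groups compared share no animal numbers, and matching was by slide only, as given above. Signal over background limits what can be read for the dim probes, and 10912 probes were above background on all 10 arrays.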
